A study of Mus musculus with 8 samples.

Results

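The genes described here encode the proteins of the cytosolic ribosome. They were taken by symbol, as every gene whose only symbol in the platform annotation starts with Rpl or Rps and a digit or is Rpsa, Rplp0, Rplp1 or Rplp2, with the S6 kinases and pseudogene names left out. The rule found 50 of 18193 measured genes. Of these, 20 encode proteins of the large subunit, 21 of the small subunit, 2 of the acidic stalk (Rplp0 and Rplp2), and 6 are paralogs of a canonical gene. The last member, Rps19bp1, was caught by its symbol but encodes a nucleolar protein that binds RPS19, not a protein of the ribosome. Another 31 ribosomal protein symbols, Rpl5 and Rplp1 among them, lay only on probe sets with several symbols and are not members.

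RNA was taken from cultured primary CD4+ T cells (BALB/c mouse strain) and hybridised to 1-colour Affymetrix arrays, 2 per group and 8 in all. Cells of the stimulated + dorsomorphin group received plate-bound anti-CD3 and soluble anti-CD28 for 1 h and then 4 µM dorsomorphin (DM) for 6 h. The stimulated group had the same antibodies and then the solvent DMSO, the dorsomorphin group had 4 µM DM without antibodies, and the control group had DMSO without antibodies. Dorsomorphin is a kinase inhibitor that acts on BMP type I receptors and on AMPK, and the labels give neither the number of mice nor what a replicate is, so a p-value covers the spread between arrays, which may be technical. Levels are log2 of the deposited signal, one probe set per gene (the one with the highest mean over the arrays), and since probe sets differ in how brightly they read a message, a level does not rank genes by abundance. A gene was tested where it exceeded log2 5.22 on at least 2 arrays, which left 13983 genes, and "rose" or "fell" means an adjusted p under 0.05 in limma over all of them.

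A ribosome holds one copy of nearly every ribosomal protein, so cells make these proteins in matched amounts, and a T cell that has been activated enlarges its ribosome pool before it divides. The messages of ribosomal proteins start with a C and a run of pyrimidines, the 5′ terminal oligopyrimidine (TOP) tract. Through it, mTORC1 and the RNA-binding protein LARP1 control how well the messages are translated, and arrays of total RNA do not read that step. Several paralogs, such as Rpl22l1 and Rps27l, can stand in for the canonical protein or have roles outside the ribosome.

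Of the 50 members, 48 could be tested. The other two were Rps16, whose single-symbol probe set lay between log2 0.48 and 4.38 on the 8 arrays, and Rpl3l, a paralog known from muscle. Of the measured members, 35 had a mean over log2 14, with means of 14.26 to 15.69, and are called bright here. The remaining 15 had means of at most 13.36 and are called dim. This division was made after the values were seen and carries no test. On each array the median of the bright members lay 0.32 to 0.52 log2 units below the highest signal of any probe set. The bright group held 15 large-subunit genes, 17 small-subunit genes, both stalk genes and Rpl22l1.

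**Figure D1:**
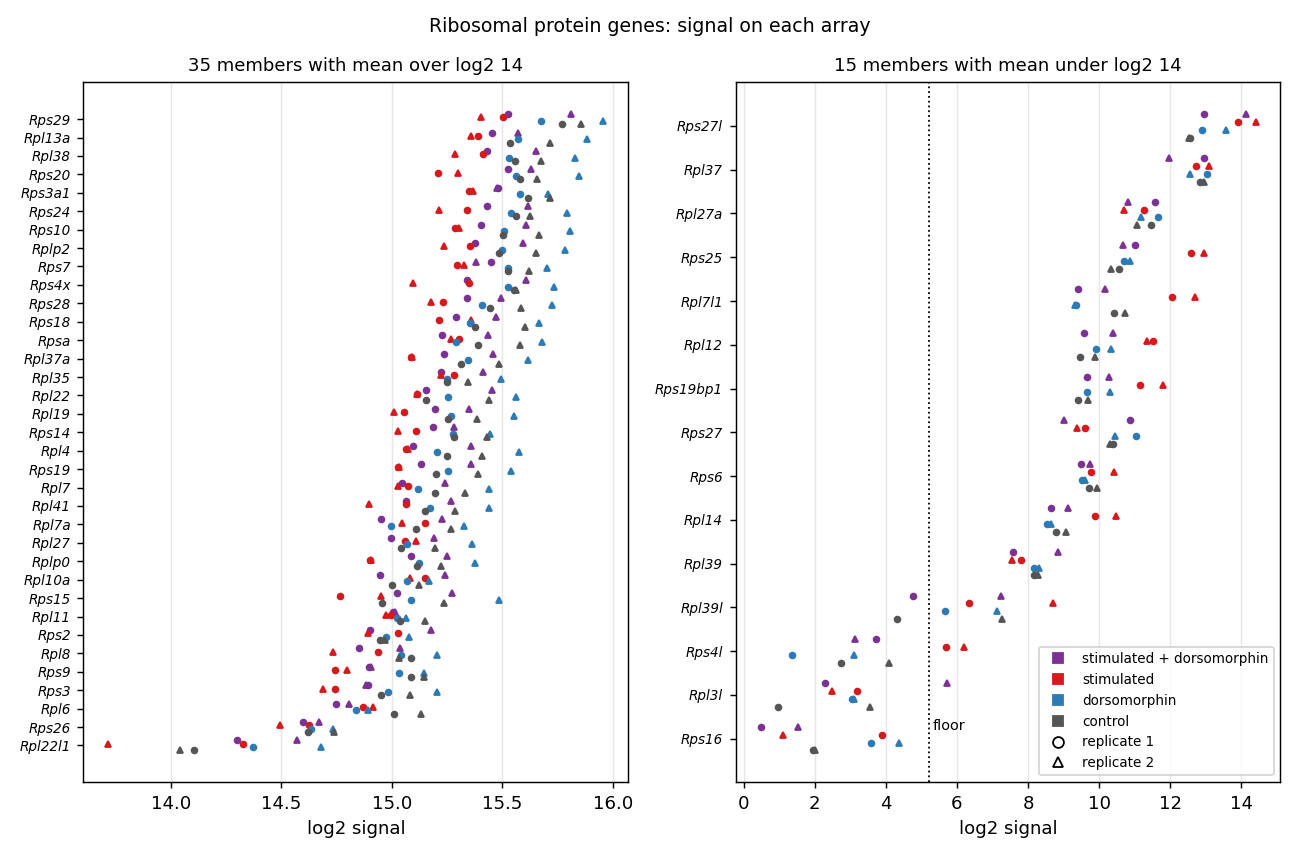
Signal of all 50 members on each of the 8 arrays, with log2 signal on the horizontal axis (the ranges of the left and right panels differ), a row per gene, colour for the group and symbol shape for the replicate. The bright members stay between 13.72 and 15.96 on every array, while Rps25, Rpl7l1, Rpl12, Rps19bp1 and Rpl14 stand higher on the stimulated arrays; the dotted line is the working floor at 5.22.

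With stimulation alone, 5 members rose and 0 fell, against control cells. They were the small-subunit gene Rps25, the large-subunit genes Rpl12 and Rpl14, the paralog Rpl7l1, and Rps19bp1. That is 10.4% of the 48 tested, while 23.4% of all tested genes passed in either direction, 8.98% up and 14.4% down. So the share of members that rose was close to that of all genes, and the share that changed at all was lower. All 5 belong to the dim group. Both stimulated arrays lay above both control arrays for 7 members and below them for 30, beside 25.1% and 42% of all tested genes. The 7 include Rps4l, which passed the filter only through the stimulated arrays.

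The promoters of these 5 genes are shown because they carry the results that passed the test. Each line has the 80 bases before and the 20 bases from the start site annotated by RefSeq (GRCm38.p6), on the gene's strand. Capitals mark the longest unbroken run of C and T among those that come within 10 bases of that start.
Rps25, chr9:44407634-44407733, plus strand: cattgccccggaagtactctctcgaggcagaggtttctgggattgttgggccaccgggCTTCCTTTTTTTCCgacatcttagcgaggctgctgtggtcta
Rps19bp1, chr15:80264287-80264386, minus strand: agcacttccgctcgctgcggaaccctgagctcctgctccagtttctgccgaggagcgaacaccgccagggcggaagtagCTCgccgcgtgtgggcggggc
Rpl7l1, chr17:46782637-46782736, minus strand: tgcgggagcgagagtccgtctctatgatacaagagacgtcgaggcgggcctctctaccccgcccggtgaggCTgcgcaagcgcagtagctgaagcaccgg
Rpl12, chr2:32961632-32961731, plus strand: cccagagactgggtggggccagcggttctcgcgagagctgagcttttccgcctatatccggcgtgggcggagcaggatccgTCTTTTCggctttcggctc
Rpl14, chr9:120571437-120571536, plus strand: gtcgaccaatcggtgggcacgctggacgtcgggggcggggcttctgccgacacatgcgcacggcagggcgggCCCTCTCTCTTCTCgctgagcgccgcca

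The canonical genes Rps25 and Rpl14 have runs of 14 pyrimidines and Rpl12 one of 7, while Rps19bp1 has 3 and the paralog Rpl7l1 has 2. Relative to the annotated start, the Rps25 run spans -22 to -9 and so lies wholly before it. That of Rpl14 spans -8 to 6 and that of Rpl12 spans 2 to 8. Whether a run is a TOP tract was not tested. In the whole windows (250 bases before the start and 50 after), RefSeq promoters were found for 44 of the 50 members, 52 promoters in all. A run of at least 8 pyrimidines near the start was present in 38.5% of the 52, against 13.7% of all 32851 promoters. The ETS-type word CCGGAA, on either strand, was in 53.8% of member promoters and 14.9% of all promoters. AAGATGG, the core that YY1 binds, was in 15.4% and 6.34%, the E-box CACGTG in 9.62% and 7.15%, and TATAAA in 11.5% and 13.6%. None of these words contains another, and a match is a description of the letters only.

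Rps25, whose protein sits on the head of the small subunit, had log2 signals of 12.57 and 12.96 on the stimulated arrays and 10.54 and 10.33 on the control arrays. The groups did not overlap, and the difference was 2.33 ± 0.25 (log2, SE), 5.01-fold, with an adjusted p of 0.00851 in limma. Rps25 was read by 1 dim probe set, as were Rpl12, Rpl14 and Rps19bp1, so their rises could not be compared between probe sets. Both arrays with dorsomorphin alone, at 10.70 and 10.86, were just above control.

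Rpl12, a protein at the base of the stalk where elongation factors bind, had 11.50 and 11.34 on the stimulated arrays and 9.47 and 9.89 on the control arrays. It rose by 1.74 ± 0.35 log2 units (adjusted p = 0.0225, limma), with every stimulated array above both controls. Rpl14, another large-subunit protein, had 9.89 and 10.47 in stimulated cells and 8.79 and 9.06 in control cells. It rose by 1.26 ± 0.31 (adjusted p = 0.0352, limma), again without overlap. It was the smallest of the 5 rises.

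Rpl7l1, the paralog of Rpl7 whose yeast relatives act in assembly of the large subunit, had 12.05 and 12.69 on the stimulated arrays and 10.41 and 10.74 on the control arrays. Its rise was 1.79 ± 0.36 log2 units (adjusted p = 0.0222, limma). It has 3 probe sets, and each was higher in stimulated than in control cells, by 2.22, 1.79 and 1.02 log2 units, of which the one at 1.02 did not pass when probe sets were fitted one by one (adjusted p = 0.105). Rps19bp1 had 11.15 and 11.80 in stimulated cells and 9.40 and 9.70 in control cells, a rise of 1.93 ± 0.38 (adjusted p = 0.0219, limma). Without it, 4 members that encode a ribosomal protein or a paralog of one had risen.

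**Figure D2:**
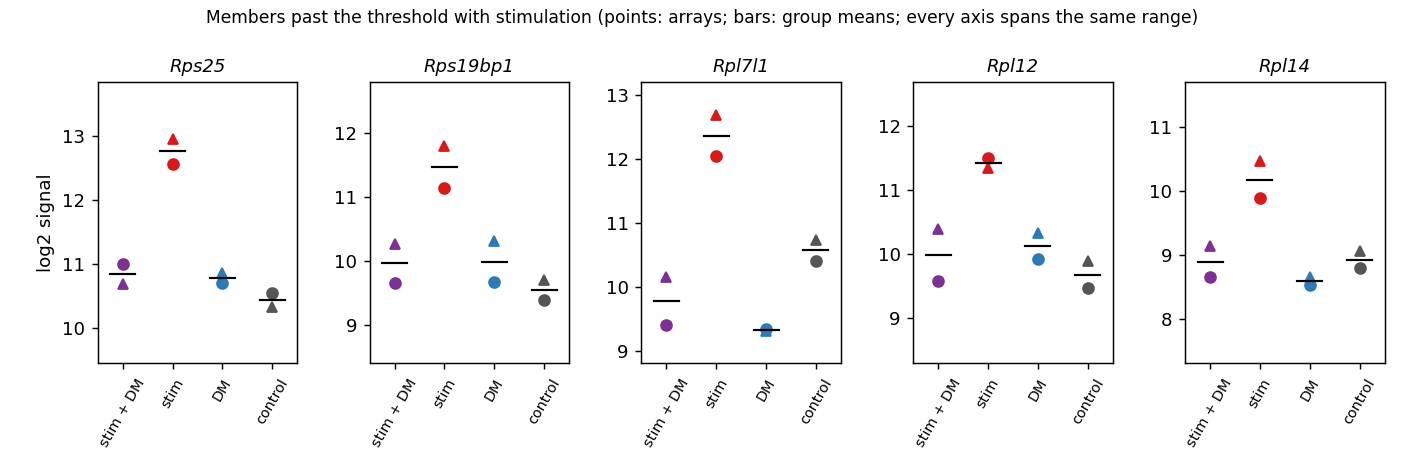
Log2 signal of the 5 members that rose with stimulation, 1 panel per gene, with the groups from left to right stimulated + dorsomorphin (stim + DM), stimulated (stim), dorsomorphin (DM) and control; points are arrays, bars are group means, and every panel spans the same range of log2 units. In each panel both stimulated arrays lie above the 6 other arrays.

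The calls in this comparison rest on the control arrays. Without either one of them, 0 members passed, and 0 of all genes. Without stimulated replicate 2, Rps25 alone passed. Leaving out any other array also changed which members passed. Without either array of the dorsomorphin group Rps4l was among them, which is no support, since it passed the filter only through the stimulated arrays.

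The differences of the 35 bright members between stimulated and control cells were small on probe sets whose signals lie close to the top of each array's range. Whether signals that near the top understate a change was not tested. Their log2 differences ran from -0.37 to 0.05 with SEs of 0.20 to 0.29, and 0 of 35 passed, in a fit in which 23.4% of all genes did. In 33 of 35 the mean was lower in stimulated cells, and in 28 both stimulated arrays lay below both control arrays, as they did for 42% of all tested genes. The median was -0.26, beside -0.27 over all tested genes. The Rps20 signal, for a protein of the small-subunit head, was 15.21 and 15.30 in stimulated cells and 15.58 and 15.66 in control cells, a difference of -0.36 ± 0.21 (adjusted p = 0.270, limma). At the other end, Rpl10a, a large-subunit protein, differed by 0.05 ± 0.22 (adjusted p = 0.885, limma).

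Members with known roles beyond the subunit core stayed within the same narrow band. Rpsa, the laminin receptor and a small-subunit protein, had 15.30 and 15.27 in stimulated cells and 15.39 and 15.58 in control cells. Rps19, whose human gene is mutated in Diamond-Blackfan anaemia, had 15.03 and 15.03 in stimulated cells and 15.20 and 15.39 in control cells. Rpl11, which binds MDM2 together with RPL5 when ribosome assembly is disturbed, had 14.99 and 14.97 in stimulated cells and 15.04 and 15.15 in control cells. The stimulated arrays were the lower ones for all 3 genes, without overlap and without passing the test.

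Rps3, at the entry of the mRNA channel, had 14.74 and 14.69 in stimulated cells and 14.95 and 15.08 in control cells. Rpl13a, known from the interferon-gamma-activated inhibitor of translation, had 15.39 and 15.36 in stimulated cells and 15.53 and 15.72 in control cells. Both stalk genes were lower without passing: Rplp0, the scaffold of the stalk, had 14.90 and 14.91 in stimulated cells and 15.11 and 15.22 in control cells. Rplp2, an acidic stalk protein, had 15.35 and 15.24 in stimulated cells and 15.49 and 15.65 in control cells. Rps6, the small-subunit protein that S6 kinase phosphorylates, was read by a dim probe set, with 9.78 and 10.40 in stimulated cells and 9.71 and 9.94 in control cells. Its groups overlapped, and the difference was 0.27 ± 0.28 (adjusted p = 0.538, limma).

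The direction of the bright members as a group depended on how the arrays were scaled. As deposited, each array has the same trimmed mean of 500, while array medians range from 45.4 to 74.5. With each array centred on its median, the bright members' median difference between stimulated and control cells was 0.10 (all genes 0.10), with quantile normalization it was -0.02 (all genes -0.03), and with cyclic loess it was -0.48 (all genes 0.00054). No direction is given for them on that account.

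**Figure D3:**
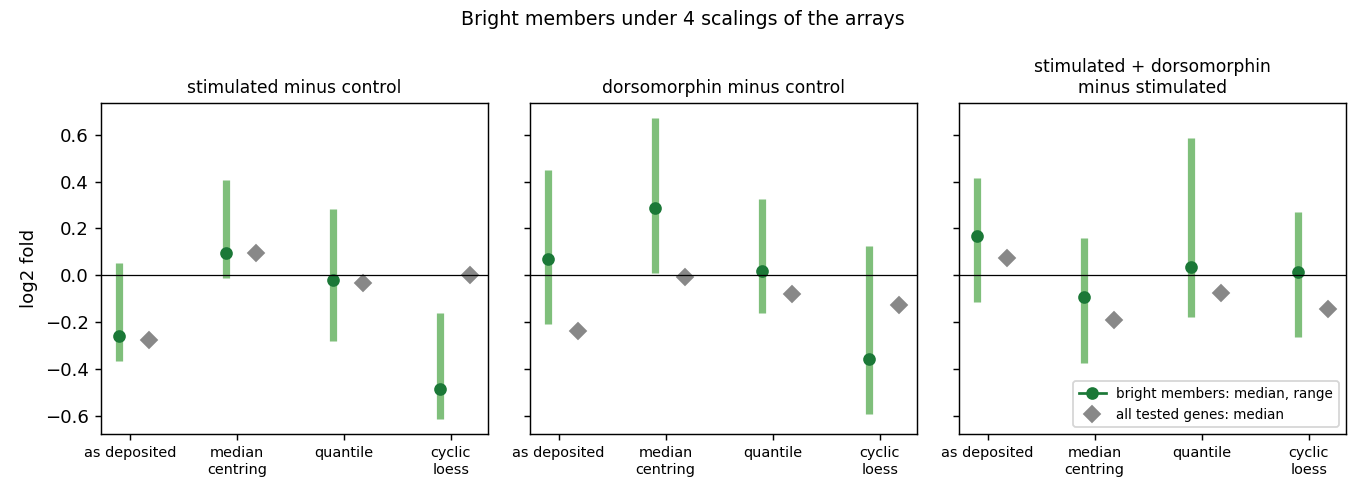
Log2 difference of the 35 bright members (circle, median; bar, lowest to highest member) and of all tested genes (diamond, median) under 4 scalings of the arrays, for stimulation, for dorsomorphin alone and for dorsomorphin in stimulated cells. The bright members' median with stimulation is -0.26 as deposited, 0.10 with median centring, -0.02 with quantile normalization and -0.48 with cyclic loess.

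Of the paralogs, Rpl7l1 alone rose, where 8.98% of all tested genes did. Rps27l, Rpl39l and Rpl22l1 did not pass, and Rps4l is described without a test below. Rps27l, a p53 target related to Rps27, had 13.89 and 14.40 in stimulated cells and 12.55 and 12.54 in control cells. These groups did not overlap, and the difference of 1.61 ± 0.47 had an adjusted p of 0.0580 in limma. Its 3 probe sets gave 1.61, 1.67 and 1.81.

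Rps4l, a relative of Rps4x, had 5.69 and 6.21 on the stimulated arrays and 2.73 and 4.09 on the control arrays. It exceeded the working floor on the 2 stimulated arrays alone and was tested only through them, so no p is given; stimulated cells were at least 1.66-fold higher, as a description. Rpl39l, known from the testis, had 6.34 and 8.70 in stimulated cells and 4.30 and 7.27 in control cells; the groups overlapped, and the difference was 1.73 ± 1.40 (adjusted p = 0.420, limma). Replicate 2 had the higher Rpl39l signal in all 4 groups, and the replicate block changes this call, as given under the processing. Rpl22l1, which in mouse T cells is known to be repressed by Rpl22, had 14.32 and 13.72 in stimulated cells and 14.11 and 14.04 in control cells, a difference of -0.05 ± 0.29.

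None of the canonical partners passed. The differences between stimulated and control cells were -0.21 ± 0.22 for Rpl7, -0.85 ± 0.60 for Rps27, -0.34 ± 0.23 for Rps4x, -0.55 ± 0.43 for Rpl39 and -0.18 ± 0.24 for Rpl22. The difference between a paralog's and its partner's change was not tested.

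**Figure D4:**
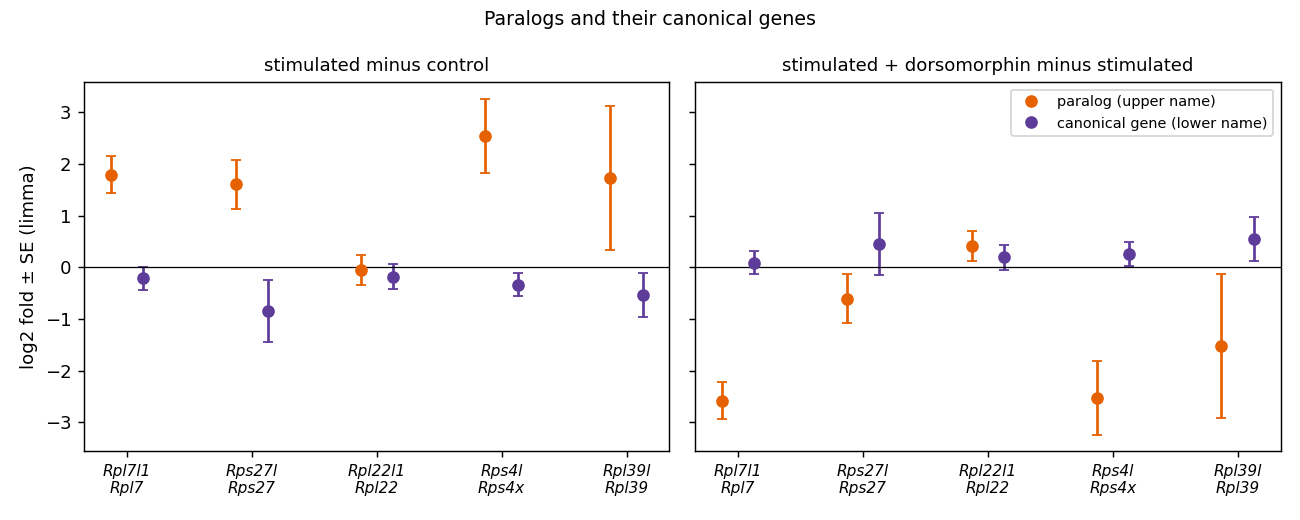
Log2 difference with limma's SE (bars) for 5 paralogs and their canonical genes, n = 2 arrays per group, for stimulated minus control and for stimulated + dorsomorphin minus stimulated. Rpl7l1 passes the threshold in both panels, with 1.79 and -2.59, and no canonical gene does; for Rps4l the arrays of the lower group lie under the working floor in both panels.

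In stimulated cells, dorsomorphin lowered the same 5 genes. Compared with stimulated cells without it, 0 members rose and 5 fell, 10.4% of the 48, where 22.1% of all genes passed in either direction, 9.71% up and 12.4% down. This comparison uses the same 2 stimulated arrays as the one above, so the pair of results are not independent. Rpl7l1 had 9.40 and 10.16 with dorsomorphin and 12.05 and 12.69 without it, and fell by 2.59 ± 0.36 log2 units (6.01-fold, adjusted p = 0.00888, limma). Rps25 had 11.00 and 10.68 with dorsomorphin and 12.57 and 12.96 without it. It fell by 1.92 ± 0.25 (adjusted p = 0.00817, limma).

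Rps19bp1 had 9.66 and 10.27 with dorsomorphin and 11.15 and 11.80 without it, and fell by 1.51 ± 0.38 (adjusted p = 0.0406, limma). Rpl12 had 9.58 and 10.38 with dorsomorphin and 11.50 and 11.34 without it, and fell by 1.44 ± 0.35 (adjusted p = 0.0363, limma). Rpl14 had 8.65 and 9.13 with dorsomorphin and 9.89 and 10.47 without it, and fell by 1.29 ± 0.31 (adjusted p = 0.0336, limma). The groups did not overlap for any of the 5. Over all members, 21 were higher and 8 lower without overlap, beside 31.4% and 29.1% of all genes. The 8 include Rps4l, which passed the filter only through the stimulated arrays. Rpl7l1 and Rps25 passed whichever array was left out, while Rpl12, Rpl14 and Rps19bp1 each lost the call without some of them. Those 3 were all lost without any 1 of the control or dorsomorphin arrays, without stimulated replicate 2 and without stimulated + dorsomorphin replicate 1. With only the 4 arrays of these groups in the fit, 0 members and 0 of all genes passed.

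Of the bright members, again read near the top of the range, 0 of 35 passed, their differences ran from -0.11 to 0.42, and the median was 0.17 beside 0.07 for all genes. The mean with dorsomorphin was higher for 32 of 35, and 21 were higher without overlap, where 31.4% of all tested genes were higher without overlap and 22.1% passed. Rplp0 had 15.09 and 15.25 with dorsomorphin and 14.90 and 14.91 without it, a difference of 0.27 ± 0.21 (adjusted p = 0.427, limma). With median centring their median became -0.09, beside -0.19 for all genes, so no direction is given here either. Among the paralogs, Rps4l lay under the floor with dorsomorphin, at 3.72 and 3.12, and gets no test for the reason given above. Rps27l, at 12.94 and 14.14 with dorsomorphin and 13.89 and 14.40 without it, overlapped.

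In cells without antibodies, dorsomorphin changed 0 of 48 members against control cells, where 13.1% of all genes passed (11.1% lower), and 4389 genes had an unadjusted p under 0.05. Rpl7l1 had the smallest p among the members. Its signals were 9.34 and 9.32 with dorsomorphin and 10.41 and 10.74 in control cells, without overlap, a difference of -1.24 ± 0.36 (adjusted p = 0.0751, limma). It fell in 3 alternative fits, described under the processing. Rps4l lay under the floor on all 4 arrays. Rpl22l1 had 14.37 and 14.68 with dorsomorphin and 14.11 and 14.04 in control cells, a difference of 0.45 ± 0.29 (adjusted p = 0.344, limma). The bright members had a median of 0.07 beside -0.24 for all genes, and cyclic loess turned it to -0.36 beside -0.13.

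Under dorsomorphin, stimulation changed 0 of 48 members, and 0% of all genes passed, with 539 genes at an unadjusted p under 0.05. Rps25 had 11.00 and 10.68 in stimulated + dorsomorphin cells and 10.70 and 10.86 in dorsomorphin cells, a difference of 0.06 ± 0.25. Rpl12 differed by -0.15 ± 0.35 and Rpl14 by 0.30 ± 0.31 in the same comparison. Rpl7l1, at 9.40 and 10.16 in stimulated + dorsomorphin cells and 9.34 and 9.32 in dorsomorphin cells, differed by 0.45 ± 0.36.

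The interaction asks whether dorsomorphin acted differently in stimulated and unstimulated cells, and 0 of 48 members passed, where 0.0858% of all genes did (12 genes, with 3687 at an unadjusted p under 0.05). Rps25 had the smallest p, with an interaction of -2.27 ± 0.36 log2 units and an adjusted p of 0.0609. Rpl12 followed with -1.89 ± 0.50 (adjusted p = 0.0956) and Rps19bp1 with -1.95 ± 0.54 (adjusted p = 0.102), all in limma. For Rpl7l1 it was -1.34 ± 0.51 (adjusted p = 0.168). A difference in the response of the members to dorsomorphin between the cell states is therefore not shown at the threshold.

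Probe sets of the same gene disagreed. The 50 members have 106 probe sets, 26 members with a single one, and each was also fitted on its own among 31996 tested probe sets, a fit added after the data were seen. With stimulation 11 probe sets of 8 genes rose, where 14.8% of all probe sets passed, 5.89% upward. Rpl14 missed the threshold in that fit (adjusted p = 0.0526, limma). None of the 65 bright probe sets passed, and their median difference was -0.26. Of the 41 dim ones, 36 were tested and 11 rose; the untested ones and that of Rps4l, which passed the filter only through the stimulated arrays, were not among the 11.

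Of the members, 13 with a bright chosen probe set also have dim ones, 20 in all. Of the 18 tested, 15 were higher in stimulated than in control cells and 6 rose, in Rps18, Rps20, Rps9 and Rpl41. Rps18, of the small-subunit head, gave -0.20 on its brightest probe set (mean log2 15.42) and 1.98 on one with a mean of 7.86 (adjusted p = 0.0210, limma). Rps20 gave -0.36 on its brightest and 1.22 on one with a mean of 6.42 (adjusted p = 0.0432, limma). Rps9, another small-subunit protein, gave -0.35 on its brightest and 1.22 on one with a mean of 8.66 (adjusted p = 0.0385, limma), but -0.63 on another with a mean of 10.34.

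Rpl41, the shortest ribosomal protein, had probe sets on both sides: -0.24 and 0.17 on its bright ones, and 1.78 and 1.88 on those with means of 10.28 and 10.34 (adjusted p = 0.0327 and 0.0354, limma). The dim Rpl41 probe sets also rose with dorsomorphin alone, by 1.69 and 1.83, in a comparison in which 8.34% of all probe sets passed, 2.14% upward. In that comparison a dim Rps18 probe set rose by 1.47 (adjusted p = 0.0479, limma), while a dim Rpl22 probe set fell by 1.43 (adjusted p = 0.0402, limma). For dorsomorphin in stimulated cells 7 probe sets of 5 genes fell, where 18% of all probe sets passed, 8.46% downward, and these were the 5 genes named above. Of the chosen probe sets, 31 of the 35 bright ones end in _a_at, _x_at or _s_at, suffixes that mark probes shared between transcripts or genes, and 13 of the 15 dim ones end in _at. Which transcripts the dim probe sets read, and the part of level, probe design and cross-hybridisation with the many ribosomal protein pseudogenes, was not tested.

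**Figure D5:**
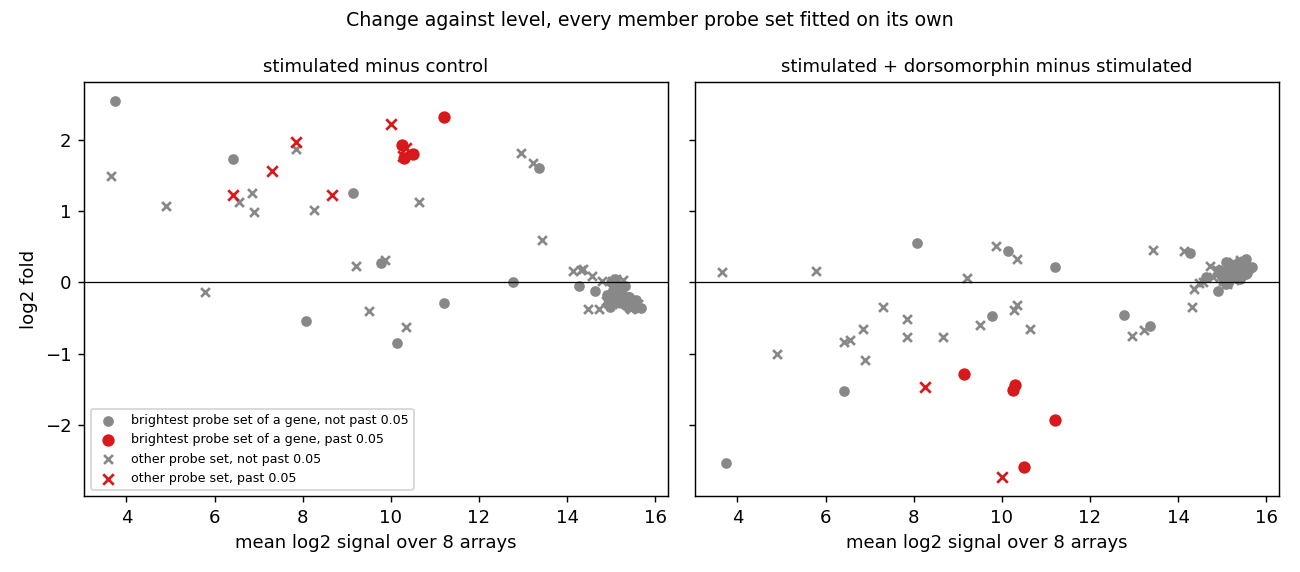
Log2 difference against mean log2 signal over the 8 arrays for every tested probe set of the members, each fitted on its own; circles are a gene's brightest probe set, crosses its others, and red marks an adjusted p under 0.05. The 65 bright probe sets lie between -0.37 and 0.19 with stimulation, while the 36 dim ones spread from -0.85 to 2.54 (the last being Rps4l), and the probe sets past the threshold are all dim.

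Probe sets whose annotation names several genes gave the same picture at the top of the range. Of 110 such probe sets with a ribosomal protein symbol, 79 were bright. With stimulation 0 of the 79 passed, where 14.8% of all probe sets did, and their median was -0.22. The other 31 were dim and less uniform. Of the 30 tested, 17 were higher and 13 lower, 3 rose and 1 fell, and the median was 0.25. That median was 1.24 for the dim probe sets with 1 symbol.

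Genes that serve ribosomal proteins on their way into the ribosome were measured too. Of 14 tested chaperones and importins that carry ribosomal proteins to the nucleolus or hold them before assembly, 8 rose with stimulation (57.1%), beside 8.98% of all tested genes, 0 fell, and the median was 1.75, beside -0.27 over all genes. Grwd1, the chaperone of RPL3, had 12.26 and 12.41 in stimulated cells and 8.57 and 8.55 in control cells, a rise of 3.78 ± 0.40 (adjusted p = 0.00851, limma). Ipo4, an importin, rose by 2.99 ± 0.34 and Ltv1, an assembly factor of the small subunit, by 2.89 ± 0.40. Tsr2, which holds RPS26, rose by 1.89 ± 0.41. Of the 14, 6 fell in stimulated + dorsomorphin cells against stimulated cells, beside 12.4% of all genes, with log2 differences of -2.90 for Grwd1, -2.86 for Ipo4 and -2.64 for Heatr3, which imports RPL5.

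TOP tracts are also known from messages of the translation machinery. Of 18 tested translation factors and relatives, 1 rose with stimulation (5.56%, beside 8.98% of all tested genes). It was Eif3a, a scaffold of the initiation factor eIF3, which rose by 1.50 ± 0.21 (adjusted p = 0.0119, limma). The median of the 18 was 0.08, beside -0.27 over all genes. Under dorsomorphin in stimulated cells 4 fell (22.2%, beside 12.4% of all tested genes), among them Eif4b by 1.19 and Eif3a by 0.95. Fau, which encodes RPS30 and lies outside the symbol rule, differed by -0.34 between stimulated and control cells without passing.

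Of 7 tested S6 kinases and regulators of TOP messages, 1 rose with stimulation, beside 8.98% of all tested genes. It was Larp1, which rose by 1.55 ± 0.27 (adjusted p = 0.0169, limma). With dorsomorphin in stimulated cells Larp1 fell by 1.30, and 2 of the 7 fell in all, beside 12.4% of all tested genes. Mtor had 8.09 and 7.85 with dorsomorphin alone and 10.26 and 10.46 in control cells, a fall of 2.39 ± 0.23 (adjusted p = 0.0109, limma). Among 5 factors known to bind ribosomal protein promoters, Myc had 13.48 and 13.55 in stimulated cells and 10.12 and 9.89 in control cells and rose by 3.51, and it fell by 4.89 with dorsomorphin in stimulated cells. Myc also fell with dorsomorphin alone (-1.62 ± 0.21, adjusted p = 0.0139, limma). It passed for the interaction too (-3.26 ± 0.30, adjusted p = 0.0492, limma). Gabpa, Yy1, Sp1 and Max did not pass in any of these comparisons. Of all tested genes, 8.98% rose with stimulation and 12.4% fell with dorsomorphin in stimulated cells. With dorsomorphin alone 11.1% fell, and 0.0858% passed for the interaction.

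Markers of the labelled cell type and of other cell types were read in every group. All 7 measured T cell markers, Cd3e and Cd4 among them, lay above the floor on every array, with summed signals of 23760 to 24060 in stimulated + dorsomorphin cells, 48400 to 50720 in stimulated cells, 16890 to 23910 in dorsomorphin cells and 63390 to 63620 in control cells. All 10 markers of myeloid and dendritic cells were measured, 7 to 10 of them above the floor, with sums of 1168 to 1724, 1015 to 1980, 1442 to 1765 and 3941 to 5266 in the same order of groups. Of 5 measured CD8 T and NK cell markers, 3 to 5 lay above the floor, Cd8b1 on every array. Their sums were 303.8 to 356.9, 538.5 to 638.3, 259.4 to 397 and 526.2 to 717.3. Of 7 measured B cell markers, 3 to 7 lay above the floor. Their sums were 516.9 to 570.1, 322 to 479.4, 310.3 to 374.2 and 569.5 to 670.5. In RNA from a whole culture, fewer cells of a type and less RNA per cell cannot be told apart. The 3′ minus 5′ log2 signal of the actin control probe sets was 0.33 on both stimulated arrays and 0.47 to 0.80 on the others. The same value for Gapdh was -0.49 and -0.32 on the stimulated arrays and lay between -0.59 and -0.18 on the others, so it did not set the stimulated arrays apart. The sums of the T cell and the myeloid markers and the actin value moved with the groups. The part of the marker sums and the actin value in the results on the members was not tested.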

How the data were processed

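As deposited by the authors, each probe set has 1 linear intensity per array. RMA and affy are named in the submitters' processing notes, without versions. The values are not on the log2 scale of RMA output: each array's mean, trimmed by 2% at each end, was 500, and 363 to 884 values per array were under 1. No detection calls were used, so each array's background could not be set. Levels are log2 of these intensities as they stand.

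All 8 arrays were fitted with limma 3.58.1 (R 4.3.3; lmFit, contrasts.fit, eBayes, 4 residual and 1.90 prior degrees of freedom), two-sided, with Benjamini-Hochberg adjustment over 13983 genes. The floor was the 40th percentile of all values (signal 37.3). A fold against a group with both arrays below it is given as a bound from the floor. Summary tables were made with Python 3.11.15.

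The members and lists were chosen with earlier results of these data known. Named are, per comparison, up to 6 risen and 6 fallen members without overlap (or the 5 with the smallest p), the paralog pairs, a fixed set of known genes, and up to 3 genes of each list; Rps20, Rpl10a, Rps18, Rps9 and Rpl41 were added after their values were seen. Data were simulated for the stimulation comparison with 13983 genes, 200 of them changed. In these, 1.4% of 2-fold, 37% of 4-fold and 72.2% of 16-fold changes were recovered. More genes passed in the data (3269), so the simulated shares need not hold there. The number of arrays limits the precision. Alternatives varied the scaling, filter, probe set, arrays, variance model and replicate block.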

Additional observations from a re-analysis of the deposited data

How the results depend on the processing

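Over all genes, 1256 rose with stimulation in the main fit, 1203 without _x_at and _s_at probe sets and 1499 with the replicate block. The 5 rises of members became 8 of 43 without those probe sets and 8 with the replicate block, Rps4l among the latter. They became 8 when each probe set was fitted on its own, an alternative chosen after seeing the data. With one array left out they ranged from 0 to 6, the 0 coming without either control array. For dorsomorphin alone, Rpl7l1 passed as lower with the 60th percentile filter, with the variance trend and robust fit and with the replicate block, 1 member each time. Without _x_at and _s_at probe sets 1 passed (Rpl41, higher), and with each probe set on its own 3 (Rpl22 lower, Rpl41 and Rps18 higher). Of all genes, 1825 passed in the main fit for dorsomorphin alone. The filter gave 2968, the variance trend and robust fit 3103, the block 2317 and the fit without those probe sets 1733. For dorsomorphin in stimulated cells the 5 falls became 2 with median centring, 2 with no filter and 0 with only the arrays of the groups compared, and ranged from 2 to 4 with one array left out. Of all genes, 3096 passed in the main fit of that comparison, 2215 with median centring and 2072 with no filter. For the interaction 1 member passed with quantile normalization, 3 with the 60th percentile filter and 3 with the variance trend and robust fit. Of all genes, 12 passed for the interaction in the main fit, and 407, 1867 and 2036 in these fits, in that order. Under dorsomorphin, no alternative gave a call for stimulation.

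The median over all tested members, -0.23 with stimulation, was 0.12 with median centring, -0.00031 with quantile normalization, -0.43 with cyclic loess and -0.0263 where the probe sets of a gene were averaged. For dorsomorphin alone it was 0.07, against 0.29 with median centring and -0.34 with cyclic loess. For dorsomorphin in stimulated cells it was 0.13, against -0.13 with median centring and -0.025 with cyclic loess. For the interaction it was 0.07, against -0.40 and 0.33. For stimulation under dorsomorphin it was -0.14 and ranged from -0.26 to 0.0127 with one array left out, the 0.0127 coming without dorsomorphin replicate 2. With one array left out, the median ranged from -0.31 to -0.15 for stimulation, from -0.053 to 0.19 for dorsomorphin alone, from 0.04 to 0.18 for dorsomorphin in stimulated cells and from -0.036 to 0.20 for the interaction. The cause of these shifts was not tested.

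Samples with the same replicate number had correlations of their deviations of 0.07 to 0.18. The labels do not say what the number marks, so these samples are not taken as pairs. The replicate block added Rpl39l (adjusted p = 0.0351, limma) and Rps27l to the rises with stimulation. It also put Rps4l past the threshold, which is no support, since Rps4l passed the filter only through the stimulated arrays. The summed signal of the 3 measured erythroid markers was higher in replicate 2 of every group (250 to 926, against 78.8 to 131 in replicate 1). Alas2 and Slc4a1 were higher there in every group. Hba-a1 was higher there only in stimulated + dorsomorphin cells (3.28 in replicate 1, 4.19 in replicate 2). It was lower there in stimulated (5.66, 1.71), dorsomorphin (5.55, 3.91) and control cells (6.03, 4.80). The part of these markers was not tested. Of 1881 values of single members under alternatives, 180 belonged to calls of the main fit. Of these 180, 0 turned direction and 53 lost the threshold. Among the 1701 others, 149 changed sign and 26 passed the threshold newly, some of them for Rps4l. In the simulation, with 200 genes changed, most 2-fold differences were missed. In the data some smaller ones passed, such as the fall of Eif3a by 0.95 log2 units with dorsomorphin in stimulated cells.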

Other observations

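The proteins of the mitochondrial ribosome, which is built from nuclear genes and serves the mitochondrial genome, were measured on the same arrays. Of 76 genes, all tested, 32 rose with stimulation (42.1%, beside 8.98% of all tested genes) and 0 fell, 73 of 76 being higher, with a median of 1.10 beside -0.27 over all genes and -0.23 for the cytosolic members. In stimulated + dorsomorphin cells against stimulated cells 28 fell (36.8%, beside 12.4% of all tested genes) and 0 rose, with a median of -1.01. Dorsomorphin alone raised 1 and lowered 4, 6.58% of the 76, where 13.1% of all tested genes passed in either direction, 11.1% downward. The difference between the mitochondrial and cytosolic sets was not tested.

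The host genes of small nucleolar RNAs, whose spliced messages also start with TOP tracts, did not follow 1 pattern. With stimulation 4 of 7 rose, beside 8.98% of all tested genes. These were Snhg3 by 2.21 ± 0.39, Snhg1 by 1.72 ± 0.29, Snhg5 by 1.25 ± 0.21 and Snhg6 by 1.11 ± 0.23 (adjusted p from 0.0155 to 0.0252, limma). Dorsomorphin alone raised 2 of the 7, Snhg1 by 1.47 ± 0.29 and Snhg6 by 1.00 ± 0.23. In that comparison 13.1% of all tested genes passed in either direction, 11.1% downward. In stimulated cells dorsomorphin lowered Snhg3, which had 9.48 and 9.54 with it and 10.85 and 12.03 without it. It raised Snhg8, which had 13.07 and 13.61 with it and 11.83 and 12.03 without it. Of all tested genes, 12.4% fell and 9.71% rose in this comparison.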
